A study of Homo sapiens with 6 samples.

Results

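The genes described here are the cyclins, cyclin-dependent kinases (CDKs) and CDK inhibitors that act at the G1 step of the cell cycle. The 10 genes CCND1, CCND2, CCND3, CCNE1, CCNE2, CDK4, CDK6, CDK2, CDKN1B and CDKN2A were taken by symbol from a table of 56638 counted gene symbols, and 9 of the 10 had enough counts to be tested, as did 22452 symbols in all. RNA-seq read counts came from HCT116 cells, a human colorectal cancer line grown in McCoy's 5a medium with fetal bovine serum, as 3 wild type (WT) samples and 3 samples in which METTL3 had been knocked out with CRISPR/Cas9 (METTL3-KO). Both groups were labelled passage 16 to 19, and the labels give no further treatment. The knockout cells were raised with a lentiviral guide, puromycin selection and limiting dilution as a monoclonal line, so METTL3-KO samples that are as labelled stand for 1 clone. The deposited data name the WT samples NC, with other numbers, and the METTL3-KO samples SiM3. Groups follow the labels here, and counts alone do not tell a knockout clone from another loss of METTL3 mRNA. The question of the comparison was how transcript levels in HCT116 cells differ once METTL3, the catalytic subunit of the complex that writes N6-methyladenosine (m6A) into mRNA, is lost.

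D-type cyclins are induced by growth signals and form active kinases with CDK4 and CDK6, which begin to phosphorylate the retinoblastoma protein RB. E-type cyclins with CDK2 complete that phosphorylation and free E2F factors to switch on the genes of S phase. The inhibitor p16INK4a, made from CDKN2A, blocks CDK4 and CDK6, and p27Kip1, made from CDKN1B, blocks CDK2 complexes while it can also help D cyclins assemble with their kinases.

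In METTL3-KO cells the mRNAs of the kinases were lower and that of the main D cyclin was higher. CDK4 was 1.56-fold lower and CDK2 1.44-fold lower, CCND1 was 1.31-fold higher, and CDK6 was 1.32-fold lower. The CDK6 call was the least stable, with log2 fold changes of -0.48 to -0.12 over 14 alternatives, of which 7 passed. CCND3, CCNE1, CCNE2, CDKN1B and CDKN2A did not pass the test, and CCND2 had no count in any sample. At an adjusted p under 0.05 in the quasi-likelihood test of edgeR, adjusted by Benjamini-Hochberg across every tested gene, 3 of the 9 tested G1 genes were lower and 1 was higher. Among all tested genes 13.2% were lower, 13.3% were higher and 26.5% passed in either direction. The median log2 fold change of the 9 genes was 0.15 and that of all tested genes was -0.02.

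The libraries held 20936091 to 30142144 counts on genes, and the spread between replicates shared across genes (edgeR's common biological coefficient of variation) was 0.0907. METTL3 itself was at 30.6, 30.2 and 29.2 CPM (a gene's count scaled to the size of its library) in WT and at 7.26, 7.69 and 6.89 CPM in METTL3-KO. Its log2 fold change was -2.04 ± 0.0906 (SE), with an adjusted p of 1.58e-07, so that 0.242 of the WT level was left. All 12 colorectal epithelial markers checked had counts, with a summed level of 7410 to 9020 CPM in WT and 10000 to 11200 CPM in METTL3-KO samples. Of these 12 markers, 4 were called higher in METTL3-KO and 0 lower, beside 13.3% higher and 13.2% lower among all tested genes. Of 10 markers of blood, stroma and endothelium, COL3A1 and PECAM1 were at 0 in every library and the sum of all 10 stayed between 5.2 and 8.76 CPM. COL1A1, at 4.688 to 7.865 CPM, made up most of that sum. PECAM1 was not matched to the annotation used for lengths, so its 0 is not read as absence. The third sample of each group stood apart: replicates 1 and 2 differed by a chi-square of 2.44 per gene in WT and 2.23 in METTL3-KO, whereas replicate 3 differed from them by 20.7 to 20.8 in WT and 7.61 to 10.1 in METTL3-KO. The 9 tested G1 genes are therefore also given without replicate 3 of both groups. That fit sets 2 samples against 2 and leaves out the sample that differed most within each group. It called 4823 lower and 4555 higher genes, against 2957 and 2986 with all samples. Its smaller p-values go with less spread between replicates and are not stronger evidence. The labels do not say whether the 3 samples of a group came from separate cultures, so p-values measure the spread between these samples, which may be technical.

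**Figure D1:**
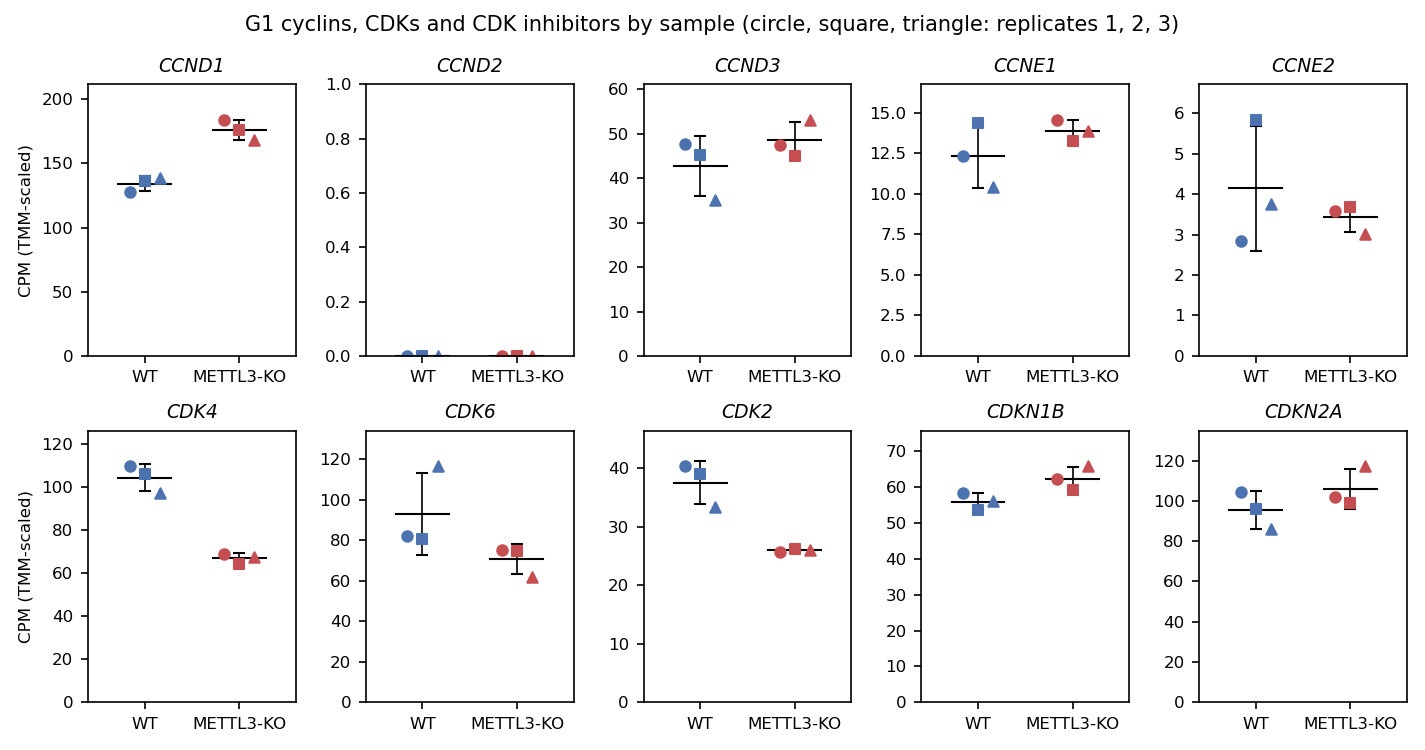
Level of each of the 10 G1 genes in CPM with TMM-scaled library sizes (vertical axes, each from 0), with WT and METTL3-KO samples side by side, replicates 1, 2 and 3 as circle, square and triangle, horizontal lines for the mean of 3 and bars for the SD. The WT and METTL3-KO points do not overlap for CCND1, CDK4, CDK6, CDK2 and CDKN1B, CCND2 lies at 0 in all 6 samples, and for CDK6 the third WT sample at 116 CPM lies well above the other two WT samples.

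The mRNAs of the genes that passed the test are shown here by the word GGACT, a common form of the sequence in which METTL3 places m6A. For each gene the GGACT nearest the stop codon of its representative GENCODE transcript is given, among words whose window lies in a single exon. It is shown with 8 bases on each side, 5′ to 3′ on the coding strand of build GRCh37, and the capitals mark the word.
CCND1, chr11:69467167-69467187, plus strand: tgcaagcaGGACTttgaggca
CDK4, chr12:58141931-58141951, minus strand: ggaagaagGGACTttcctgca
CDK6, chr7:92355066-92355086, minus strand: cgaggtctGGACTttcttcat
CDK2, chr12:56365481-56365501, plus strand: ggctatttGGACTcaggtggg
The words of CDK2, CDK4 and CCND1 lie in the 3'UTR and begin 82, 367 and 1127 bases after the first base of the stop codon. That of CDK6 lies in the coding sequence and begins 580 bases before that base. The whole CDK4 transcript holds 1 GGACT, that of CDK2 holds 3, that of CCND1 holds 3 and the long CDK6 transcript of 11663 bases holds 6. Per kb this was 0.536 for CDK4, 0.514 for CDK6, 0.708 for CCND1 and 1.34 for CDK2, beside a median of 0.941 and quartiles of 0.566 and 1.41 over 14359 tested protein-coding genes. Among the genes that did not pass, the number of words per transcript ran from 0 in CDKN2A and 1 in CDKN1B to 3 in CCND3. The transcript of CDKN2A used here therefore offers no such word, and the CDK4 transcript offers it once. Whether any of these adenosines carries m6A was not measured in these counts.

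Cyclin D1, the product of CCND1 (chr11:69455924-69469242, plus strand), is the D cyclin most often amplified in carcinomas, and it carries CDK4 and CDK6 to RB. CCND1 was at 128, 136 and 139 CPM in WT and at 184, 176 and 168 CPM in METTL3-KO, from 2957 to 5543 counts per sample. Every METTL3-KO sample was above every WT sample. The means were 134.1 ± 5.87 and 176.1 ± 7.71 CPM (SD, n = 3 each), and the log2 fold change was 0.39 ± 0.0713 (SE) with a 95% interval of 0.24 to 0.55 and an adjusted p of 0.00155. Without replicate 3 of both groups it was 0.45 (adjusted p = 7.2e-13). CCND1 passed in both fits, and the smaller p-value goes with the smaller spread of the reduced fit. The gene shares 10.4% of its exon bases with ORAOV1 (current symbol LTO1) on the opposite strand, and ORAOV1 was at 35.5 ± 1.02 CPM in WT and 37.2 ± 0.327 CPM in METTL3-KO (adjusted p = 0.539).

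The other D cyclins did not pass the test. CCND3 (chr6:41902672-42018095, minus strand), whose product can stand in for cyclin D1 and is prominent in blood cells, was at 47.8, 45.3 and 35.1 CPM in WT and 47.5, 45.0 and 53.1 CPM in METTL3-KO. The first and second samples of the groups were nearly level, and the third samples lay on opposite sides of them. The log2 fold change of CCND3 was 0.18 ± 0.113 (SE, 95% interval -0.06 to 0.43, adjusted p = 0.271), and it was -0.01 without replicate 3 of both groups. CCND2 (chr12:4378937-4414519, plus strand), the D cyclin of many lymphoid and gonadal cells, had 0 counts in all 6 libraries. A count of 0 allows at most 3 counts, which is 0.0995 to 0.143 CPM depending on the library and covers counting error only, so CCND2 was not detectable at this depth. On a scale of CPM per kb of longest transcript, CCND1 made up 60.1%, 62.9% and 69.0% of the D cyclin level in WT and 68.6%, 68.8% and 64.2% in METTL3-KO. These shares overlapped (two-sided exact permutation p = 0.4, where 3 against 3 samples cannot go below 0.1). The share itself depended on the length used. With the union of all exons it was 76.3%, 78.4% and 82.7% in WT and 82.4%, 82.6% and 79.3% in METTL3-KO, also with overlap.

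E-type cyclins bind CDK2 late in G1. CCNE1 (chr19:30302898-30315219, plus strand) was at 12.3, 14.4 and 10.4 CPM in WT and 14.6, 13.2 and 13.9 CPM in METTL3-KO, and its groups overlapped. Its log2 fold change was 0.17 ± 0.119 (SE, 95% interval -0.09 to 0.43, adjusted p = 0.333) and 0.07 without replicate 3 of both groups. CCNE2 was the lowest of the detected genes at 2.84, 5.84 and 3.75 CPM in WT and 3.58, 3.68 and 3.02 CPM in METTL3-KO, on 71 to 132 counts per sample. The WT samples of CCNE2 enclosed all METTL3-KO samples, and the interval of the log2 fold change, -0.76 to 0.24 around -0.26 ± 0.230 (SE, adjusted p = 0.448), was the widest of the 9. Leaving out the second WT sample turned that value to 0.08, and leaving out replicate 3 of both groups gave -0.22. CCNE2 (chr8:95891998-95908906, minus strand) shares 37.0% of its exon bases with INTS8 on the other strand, and INTS8 was 1.29-fold higher in METTL3-KO (log2 fold change 0.37 ± 0.0716, adjusted p = 0.00232). In each sample CCNE1 gave the larger part of the E cyclin level per kb, 83.8 ± 3.82% in WT and 87.4 ± 1.37% in METTL3-KO (SD, n = 3 each, exact permutation p = 0.3). If counting was without strand, CCNE2 reads over INTS8 were left out, and these CCNE1 shares would be too high.

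Of the 10 genes, the kinases CDK4 and CDK2 had the smallest p-values. CDK4 (chr12:58141510-58149796, minus strand), the main partner of D cyclins in epithelial cells, was at 109.5, 106.0 and 97.4 CPM in WT and 68.8, 64.1 and 67.7 CPM in METTL3-KO. The lowest WT sample was well above the highest METTL3-KO sample. Means were 104 ± 6.26 and 66.9 ± 2.43 CPM (SD, n = 3 each), and the log2 fold change was -0.64 ± 0.0752 (SE, 95% interval -0.81 to -0.48, adjusted p = 8.23e-05). CDK4 was at -0.70 without replicate 3 of both groups (adjusted p = 1.4e-17). Of the CDK4 exon bases, 44.2% are shared with TSPAN31 on the opposite strand, where counting without strand leaves out read pairs that touch both genes. TSPAN31 rose where CDK4 fell, from 31.3 ± 2.04 CPM in WT to 37.6 ± 1.08 CPM in METTL3-KO (log2 fold change 0.26 ± 0.0805, adjusted p = 0.0313). In these bulk samples, fewer cells expressing a gene and less of its RNA per cell cannot be told apart, for CDK4 as for the other genes.

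The CDK4 promoter is shown for a word that few promoters hold 3 or more times. Of the 10 genes, 6, with 10 start sites between them, had a RefSeq promoter on GRCh38.p14, taken as 250 bases before to 50 bases after the start. The E-box CACGTG, a word bound by MYC with MAX and by USF factors that reads the same on both strands, occurred 3 times in the CDK4 promoter, 1 time in a CDK6 promoter and not in the others. Among 35116 promoters of this length 7.26% held at least 1 and 0.094% held 3 or more. The E-boxes of CDK4 follow with 10 bases on each side, 5′ to 3′ on the minus strand of chromosome 12, with the word in capitals and named by its distance from the start site.
CDK4 at -216, chr12:57752511-57752536: gtcaagcggtCACGTGtgatagcaac
CDK4 at -196, chr12:57752491-57752516: agcaacagatCACGTGgctgccatcg
CDK4 at -101, chr12:57752396-57752421: gggtggcggtCACGTGcccagaacgt
No entry of the G1 genes held any of the E2F words TTTCCCGC, TTTGGCGC, TTTCGCGC and TTTGCCGC on either strand, which 3.31% of all promoters held. GGGCGG, the GC box, was found on either strand 7 times in CCNE1 and 5 and 4 times in different CCND3 promoters. It was found 3 times each in CDK4 and a CDK6 promoter, 2 times in a CDKN2A promoter and 1 time in CDKN1B. Of all promoters 45.0% had it, and 15.8% had it 3 or more times. CCAAT was found 3 times in CDKN1B and 1 time each in different CCND3 promoters. It was in 34.6% of all promoters, and 3.26% had it 3 or more times. These are matches of letters in a window and not sites shown to be bound in HCT116 cells. MYC mRNA was at 182 ± 8.72 CPM in WT and 161.5 ± 7.44 CPM in METTL3-KO (log2 fold change -0.17 ± 0.0719, adjusted p = 0.0991). A link between MYC and the CDK4 level was not tested.

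CDK6 (chr7:92234235-92465887, minus strand) encodes the other kinase of D cyclins. It was at 82.2, 80.5 and 116 CPM in WT and 75.1, 74.8 and 61.9 CPM in METTL3-KO. The groups did not overlap, but the third samples lay on opposite sides and made most of the difference in these CPM values. The log2 fold change of -0.40 ± 0.133 (SE, 95% interval -0.69 to -0.10, adjusted p = 0.0464) became -0.20 without the third WT sample (adjusted p = 0.0712), -0.31 without the third METTL3-KO sample (adjusted p = 0.152) and -0.12 without both (adjusted p = 0.0435). Across 14 other ways of processing or leaving out samples, CDK6 was lower in all and passed in 7. Its transcript is the longest of the set at 11663 bases, and a curve of transcript length and GC content fitted within each sample placed genes like CDK6 0.24 above their mean over the samples in log2 terms in the third WT sample and -0.13 from it in the third METTL3-KO sample. In the first and second samples the curve placed such genes at -0.13 and -0.14 in WT and at 0.099 and 0.062 in METTL3-KO. After each sample was corrected by its curve, the log2 fold change of CDK6 was -0.41 ± 0.0567 (adjusted p = 1.0e-04).

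CDK2 (chr12:56360565-56366573, plus strand) is the kinase of E cyclins and later of cyclin A. CDK2 was at 40.3, 39.0 and 33.3 CPM in WT and 25.8, 26.2 and 26.0 CPM in METTL3-KO. All METTL3-KO samples were below all WT samples and had an SD of 0.238 CPM around their mean of 26.0 CPM. The log2 fold change was -0.53 ± 0.0888 (SE, 95% interval -0.73 to -0.34, adjusted p = 9.1e-04), and -0.61 without replicate 3 of both groups (adjusted p = 3.5e-11). CDK2 shares 14.5% of its exon bases with an opposite-strand lncRNA that was not matched to a count symbol and 2.29% with PMEL on the same opposite strand, and PMEL was near 2.63 CPM in WT and 2.44 CPM in METTL3-KO (adjusted p = 0.664).

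The inhibitors in the set did not pass the test. CDKN1B (chr12:12838432-12875303, plus strand), the gene of p27Kip1, was at 58.2, 53.5 and 56.0 CPM in WT and 62.1, 59.1 and 65.7 CPM in METTL3-KO. Its groups did not overlap, by less than 1 CPM, and the log2 fold change of 0.16 ± 0.0757 had an interval that just included 0 (SE, 95% interval -0.01 to 0.32, adjusted p = 0.156). Without replicate 3 of both groups CDKN1B was at 0.12 (adjusted p = 0.0896). CDKN2A (chr9:21967751-21995300, minus strand), which encodes both p16INK4a and, from another first exon, the p53 activator p14ARF, was at 104, 96.2 and 86.0 CPM in WT and 102, 99.0 and 117 CPM in METTL3-KO. The groups of CDKN2A overlapped, and a count per gene symbol does not separate its products. Its log2 fold change was 0.15 ± 0.0922 (SE, 95% interval -0.05 to 0.35, adjusted p = 0.271) and became -0.0024 without replicate 3 of both groups. With each sample corrected for length and GC content, whose curve placed genes like CDKN2A at -0.20 in the third WT sample and 0.13 in the third METTL3-KO sample, CDKN2A was at 0.16 ± 0.0529 and passed (adjusted p = 0.0299). CDKN2B-AS1, which shares 15.3% of the CDKN2A exon bases on the opposite strand, was at 2.58 and 2.59 CPM in the groups (adjusted p = 0.965). In all, 5 of the 9 tested genes had groups that did not overlap, beside 40.9% of all tested genes.

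**Figure D2:**
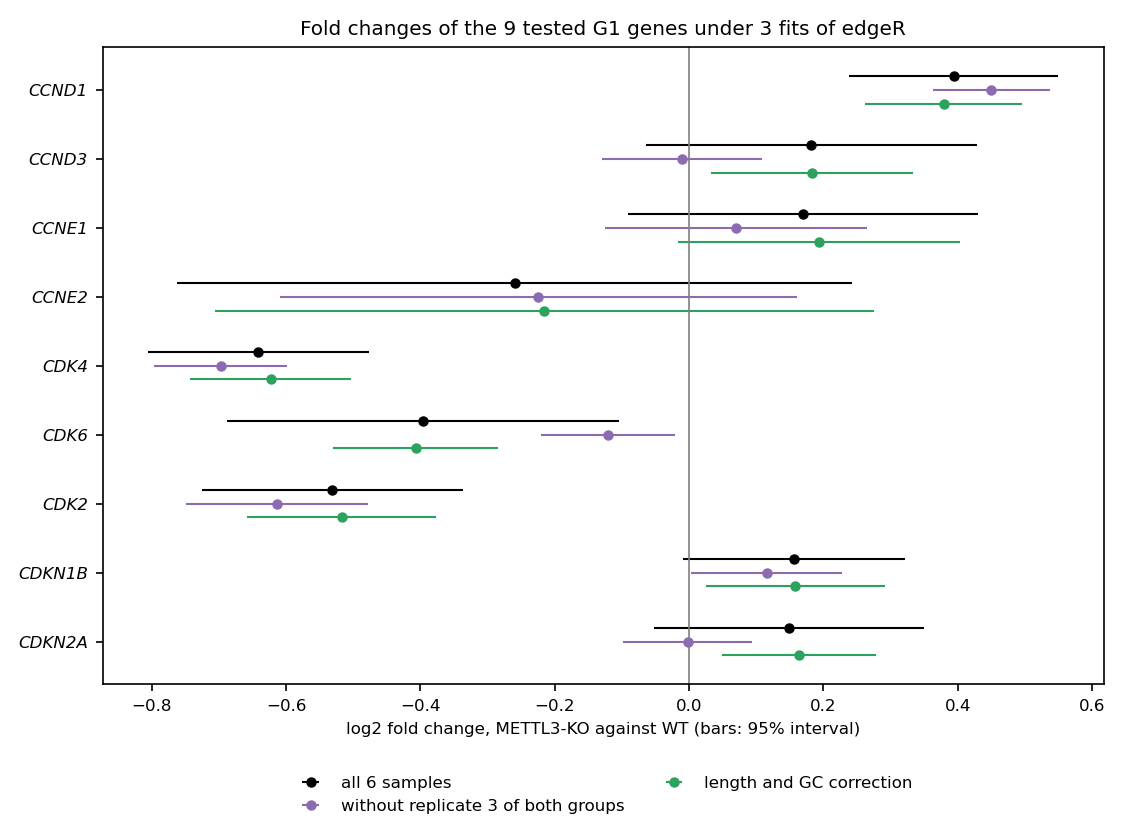
Log2 fold change of METTL3-KO against WT (horizontal axis) with its 95% interval for the 9 tested G1 genes, under the fit of all 6 samples, without replicate 3 of both groups and with length and GC correction. CDK4 stays between -0.70 and -0.62, CDK2 between -0.61 and -0.52 and CCND1 between 0.38 and 0.45, while CDK6 moves from -0.40 to -0.12 and CCND3 and CDKN2A move to -0.01 and -0.0024 without replicate 3.

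Ranked by level per length, CDK4 stood above CCND1 in WT cells and below it in METTL3-KO cells. If counting was without strand, read pairs over the 44.2% of CDK4 exon bases shared with TSPAN31 were left out. The levels per length and percentiles of CDK4 would then be too low, and its place below CCND1 in METTL3-KO cells may not hold. The places of CDKN2A, CCND3, CDK2 and CDKN1B depended on the length used. On the scale of CPM per kb of longest transcript, CDKN2A was at 90.8 ± 8.79 in WT, CDK4 at 55.9 ± 3.36, CCND1 at 31.6 ± 1.39 and CCND3 at 17.9 ± 2.81 (SD, n = 3 each). CDK2 at 14.4 ± 1.43 and CDKN1B at 12.9 ± 0.549 followed and did not differ beyond their spread, nor did CDK6 at 7.98 ± 1.73 and CCNE1 at 6.33 ± 1.02, and CCNE2 was last at 1.24 ± 0.462. In METTL3-KO cells CCND1 at 41.6 ± 1.82 stood above CDK4 at 35.9 ± 1.30, and CDKN1B at 14.4 ± 0.756 stood above CDK2 at 10.0 ± 0.0915. CDKN2A was at 100.7 ± 9.26 and CCNE2 was last at 1.03 ± 0.108. With the union of all exons in place of the longest transcript, a choice made after the data were seen, CDKN2A was not at the top: CDK4 was at 33.7 ± 2.02, CCND1 at 28.2 ± 1.23 and CDKN2A at 24.6 ± 2.38 CPM per kb in WT. In METTL3-KO cells the order on that scale was CCND1 at 37.0 ± 1.62, CDKN2A at 27.3 ± 2.51 and CDK4 at 21.6 ± 0.785. With union lengths CDK2 at 9.66 ± 0.955 stood above CDKN1B at 6.04 ± 0.257 in WT, and CCND3 was at 7.42 ± 1.17. In METTL3-KO cells CDK2 at 6.69 ± 0.0612 and CDKN1B at 6.73 ± 0.354 were then level, and CCND3 was at 8.43 ± 0.722. Among 17086 tested genes with a length, the longest transcript put CDK4 at the 94.1st in WT and 89.8th in METTL3-KO, and CCND1 at the 88.5th and 91.5th. The union is 3.69 times the longest transcript for CDKN2A, 2.41 times for CCND3, 2.13 times for CDKN1B and 1.05 times for CDK6.

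Ratios between the genes inside each library need no scaling between libraries and are given for 7 pairs. The log2 ratio of CCND1 counts to CDK4 counts was 0.22, 0.36 and 0.51 in WT and 1.42, 1.46 and 1.32 in METTL3-KO. CCND1 thus stood 2.05-fold higher against CDK4, a difference of 1.03 in log2 terms, with no overlap of the groups (two-sided exact permutation p = 0.1, the smallest that 3 against 3 allows, and 0.233 after adjustment over 7 ratios). CCND1 had already been called higher and CDK4 lower in these same counts. The separation of this ratio followed from those calls and is no further support for them. CCND1 also stood higher against CDKN1B in every METTL3-KO sample, at 1.57, 1.58 and 1.36 beside 1.13, 1.35 and 1.31 in WT (1.18-fold, exact permutation p = 0.1, adjusted 0.233). The nearest samples of the groups, at 1.36 and 1.35, were almost level. The ratio of CDK2 to CDK4 was -1.44, -1.44 and -1.55 in WT and -1.42, -1.29 and -1.38 in METTL3-KO, a 1.08-fold difference that also left no overlap (exact permutation p = 0.1, adjusted 0.233). Here too the nearest samples, at -1.44 and -1.42, lay close together. The ratios of CCND3 to CCND1 (exact permutation p = 0.4), CCNE2 to CCNE1 (p = 0.3), CDK6 to CDK4 (p = 0.4) and CCNE1 to CDKN1B (p = 0.9) overlapped between the groups. CDK6 made up 12.5 ± 3.05% of the CDK4 and CDK6 level per kb in WT and 14.4 ± 1.52% in METTL3-KO (SD, n = 3 each, exact permutation p = 0.4). With the union of all exons as the length these shares were 18.4 ± 4.14% and 21.1 ± 2.05%. Any CDK4 reads left out over TSPAN31 would make these CDK6 shares too high.

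**Figure D3:**
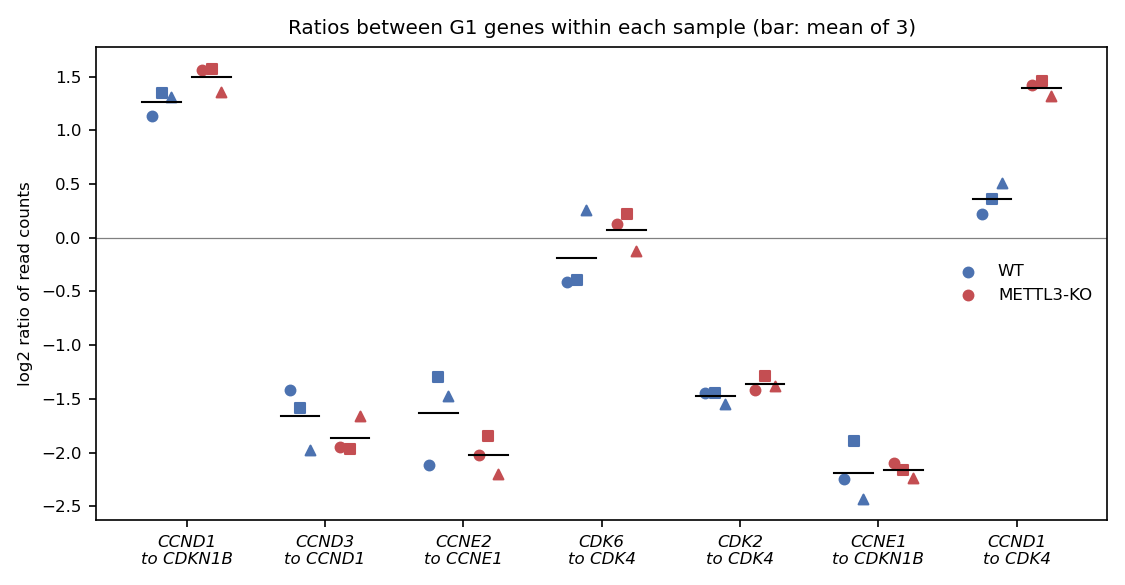
Log2 ratio of read counts (vertical axis) for 7 pairs of G1 genes in each WT and METTL3-KO sample, with replicates 1, 2 and 3 as circle, square and triangle and bars for the mean of 3. The CCND1 to CDK4 ratio goes from 0.22 to 0.51 in WT to 1.32 to 1.46 in METTL3-KO, while the CDK6 to CDK4 and CCNE1 to CDKN1B ratios overlap.

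The genes nearest in profile to the 3 G1 genes of smallest p were found among 10319 genes by the root mean square difference of their log2 CPM over the 6 samples, each centred on its own mean. For CDK4 they were UNK (0.0276), MCM7 (0.0293) and KPNA2 (0.0301), and MCM7, a subunit of the replicative helicase, went from 327 to 376 CPM in WT to 230.5 to 238 CPM in METTL3-KO. For CDK2 they were COQ10B (0.0267), CDIPT (0.0318) and BTF3L4P2 (0.0347), the last a pseudogene whose counts may include reads of its parent gene. TBX3 (0.0194), CNST (0.0205) and COPA (0.0214) were nearest to CCND1, and TBX3 was at 38.4 to 43.0 CPM in WT and 51.5 to 57.0 CPM in METTL3-KO. With 6 samples in 2 groups such likeness mostly records that a gene moved by a similar amount between the groups.

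The remaining CDK inhibitors passed the test in both directions, with 2 higher and 2 lower of 5 tested, beside 13.3% higher and 13.2% lower among all tested genes. CDKN2B, which encodes the CDK4 and CDK6 inhibitor p15INK4b and neighbours CDKN2A, was at 13.7 ± 0.604 CPM in WT and 26.3 ± 1.59 CPM in METTL3-KO, 1.92-fold higher (log2 fold change 0.94 ± 0.0891, adjusted p = 1.8e-05). CDKN1A, which encodes the p53 target p21, was at 14.5 ± 1.20 and 25.9 ± 3.45 CPM, 1.78-fold higher (0.83 ± 0.113, adjusted p = 2.3e-04). CDKN1C, the gene of p57, was 1.65-fold lower (-0.72 ± 0.155, adjusted p = 0.00453) at 5.88 ± 0.907 CPM in WT and 3.60 ± 0.420 CPM in METTL3-KO. CDKN2C, the gene of p18INK4c, was 1.28-fold lower (-0.36 ± 0.115, adjusted p = 0.0371), a call that DESeq2 did not make (adjusted p = 0.0769).

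Several enzymes that set the phosphorylation of CDKs were lower, as were CDK1, CCNF and CCNA2. Of 8 genes of the CDK-activating kinase, the WEE1 family and the CDC25 phosphatases, 4 were lower and 1 was higher (13.2% and 13.3% of all tested genes), with a median log2 fold change of -0.35 beside -0.02 for all. The lower ones were CDC25C at -0.92 ± 0.0840, the inhibitory kinases PKMYT1 at -0.83 ± 0.114 and WEE1 at -0.68 ± 0.0748, and CDC25B at -0.55 ± 0.0710, and thus included both phosphatases that activate CDKs and kinases that restrain them. CDK7, the catalytic subunit of the activating kinase, was at 0.26 ± 0.0820 (adjusted p = 0.0342). Of 5 tested S and G2/M cyclins and CDK1, 3 were lower and the others, the B cyclins CCNB1 and CCNB2, were at -0.19 (adjusted p = 0.103 and 0.0905), with a median of -0.26. CDK1 was at -0.75 ± 0.0697, CCNF at -0.59 ± 0.0843 and CCNA2, the cyclin that takes over CDK2 in S phase, at -0.26 ± 0.0776 (adjusted p = 0.0247).

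Downstream of the kinases, 5 of 13 tested RB and E2F genes were lower and 2 were higher, with a median of -0.25, beside 13.2% lower and 13.3% higher among all tested genes. RB1, the substrate itself, was at 74.5 ± 11.7 CPM in WT and 41.3 ± 4.48 CPM in METTL3-KO (log2 fold change -0.85 ± 0.116, adjusted p = 2.2e-04). RBL1, the gene of p107, was at -0.88 ± 0.128 and the repressor gene E2F5 at -0.82 ± 0.0878, while the E2F partner TFDP1 was at 0.34 ± 0.0673 (adjusted p = 0.00282). The other three that passed were E2F6 at -0.35, E2F7 at -0.51 and RBL2, the gene of p130, at 0.23. The parts of the ubiquitin ligases that remove D cyclins, E cyclins and p27Kip1 gave 3 lower and 2 higher of 12, read against the same shares, and a median of -0.08. FBXO4, described as a receptor for cyclin D1, was at -0.59 ± 0.116 (adjusted p = 0.00257), and SKP2 and its cofactor CKS1B, which together mark p27Kip1, were at -0.28 ± 0.0801 and -0.33 ± 0.0945 (adjusted p = 0.0225 and 0.0223). CUL3, described as a scaffold for cyclin E turnover, was at 0.25 ± 0.0682. FBXW7, a receptor for phosphorylated cyclin E, was at 0.27 ± 0.0831.

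Each count that follows stands beside 13.2% lower and 13.3% higher among all tested genes. Among regulators of transcription of the set, 8 factors known to act on CCND1 or CDKN1B gave 3 that were higher, and the others did not pass. The AP-1 subunit FOSL1 rose 1.52-fold (log2 fold change 0.61 ± 0.103, adjusted p = 0.00102), and the FOXO factors FOXO4 and FOXO1, which can induce CDKN1B, were at 0.35 ± 0.0806 and 0.30 ± 0.104 (adjusted p = 0.00662 and 0.0489). Polycomb subunits, known to repress CDKN2A, gave 3 lower and 1 higher of 8. EZH2, the methyltransferase, was at -0.31 ± 0.0666, its partner EED at -0.39 ± 0.0857 and the reader CBX7 at -0.37 ± 0.0862, while the ubiquitin ligase RNF2 was at 0.24 ± 0.0813 (adjusted p = 0.0453). Of the 9 CDKs and cyclins of transcription 4 were higher and the others did not pass, with a median of 0.26. CDK9, the elongation kinase, was at 0.44 ± 0.0890, CDK8 of the Mediator at 0.44 ± 0.0729, its partner CCNC at 0.34 ± 0.0716 and CCNK, the partner of CDK12, at 0.31 ± 0.0787. The remaining cyclins and CDKs gave 5 lower and 2 higher of 15, among them CDK16 at 0.46 ± 0.0700, CCNG2 at -0.39 ± 0.0954, CCNJ at -0.38 ± 0.102 and CCNG1 at -0.32 ± 0.0683. CDK17 at -0.44 and CDK20 at -0.34 were also lower. Without replicate 3 of both groups, a check added after the data were seen, all 42 called genes of the 9 lists kept their direction and passed, and 3 moved by over 1.5 times: CDK7 to 0.17, E2F7 to -0.24 and CDK17 to -0.24. That fit called 4823 lower and 4555 higher genes in all, against 2957 and 2986 with all samples. Genes already called on these same samples were therefore likely to pass again. MYC, CCNB1, CCNB2, CDK7, FBXW7, E2F6, E2F7, RBL2, CDK17, CDK20 and the marker COL1A1 fall outside the rule for named genes and were named after their values were seen.

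**Figure D4:**
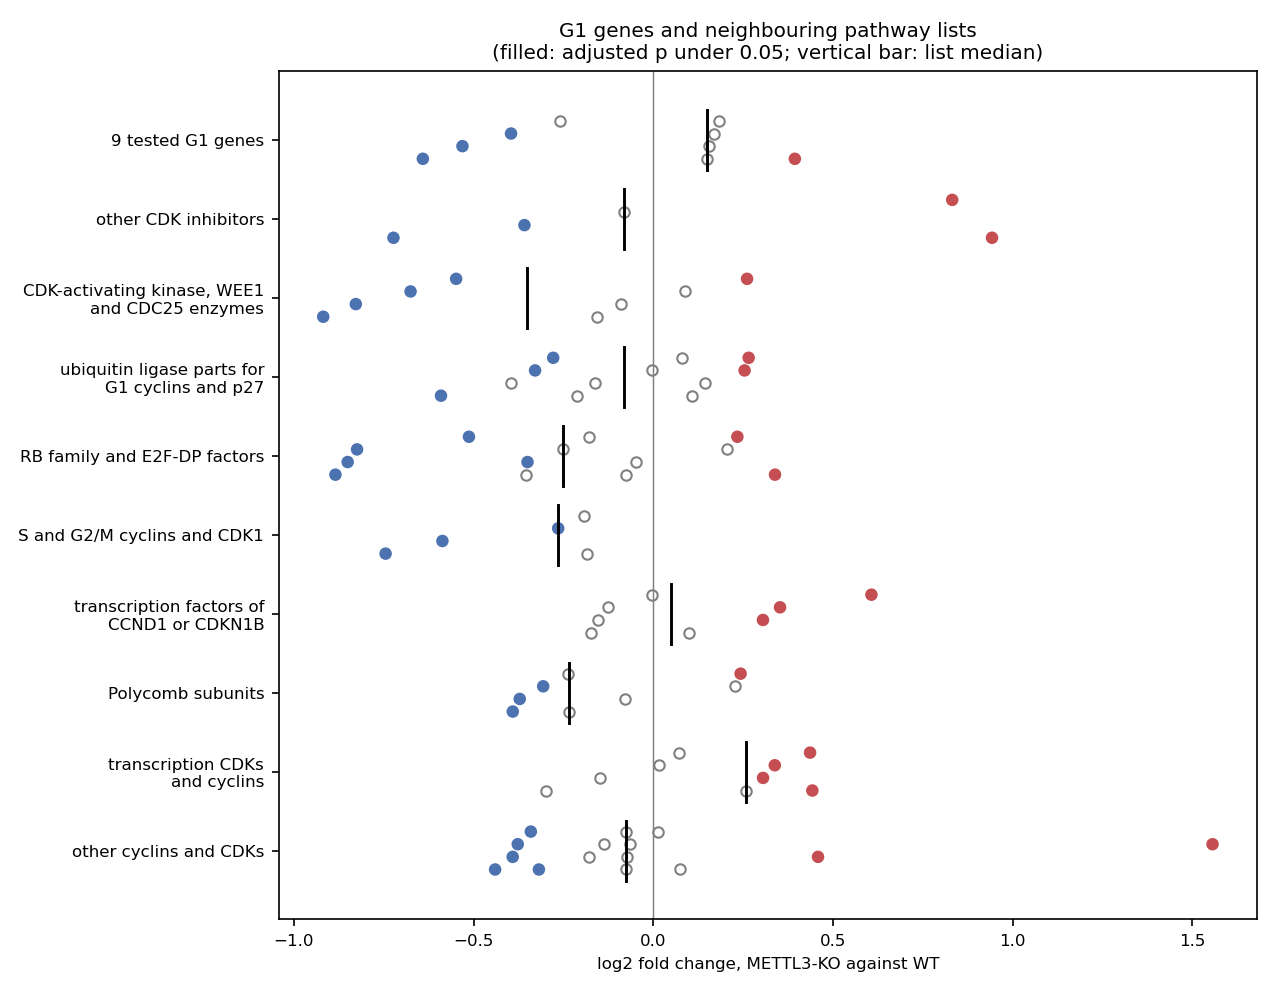
Log2 fold change of METTL3-KO against WT (horizontal axis) for each tested gene of the G1 set and of 9 lists of related genes (rows), filled where the adjusted p was under 0.05 (blue lower, red higher) and with vertical bars for list medians. Medians run from -0.35 for the CDK-activating kinase, WEE1 and CDC25 enzymes to 0.26 for the transcription CDKs, and the far right point is CDK14, which rested on 2 to 13 counts per sample and was named after its value was seen.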

How the data were processed

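RNA-seq libraries of 3 WT and 3 METTL3-KO samples of HCT116 cells were analysed as labelled. Reads of both ends were aligned by the authors to hg19 (TopHat2 2.0.11 in the submitters' processing notes) on an Ensembl GRCh37 transcript index, and htseq-count tallied them per gene by its union rule. The deposited files hold these whole-number counts by gene symbol without normalization, and the strand setting is not given in the sources used here. htseq-count's rows of unassigned reads (28.2% to 30.7% of each file's total) were left out.

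A symbol was kept where its counts summed to at least 5 in WT or in METTL3-KO, so 22452 were tested and 34186 set aside. METTL3-KO was compared with WT by edgeR's quasi-likelihood test (edgeR 4.0.16, R 4.3.3) with TMM, two-sided, with Benjamini-Hochberg adjustment over all tested genes. Depth per library was 20936091 to 30142144 counts, and CPM used TMM-scaled totals. Ratios and shares were compared by exact permutation tests (scipy 1.17.1). Positions and lengths came from GENCODE on GRCh37, and promoters from RefSeq on GRCh38.p14. Of 56638 count symbols, 33522 matched the annotation and 1838 matched through an older symbol. Length and GC correction used splines with 5 degrees of freedom drawn through genes of mean log2 CPM above 3.

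Named genes were the 10 members, METTL3, up to 4 genes per list with an adjusted p under 0.05 and the smallest p, the 3 nearest profiles of the 3 members with the smallest p, and genes overlapping a member's exons. The members and lists were chosen with earlier results of these data known. Alternatives were DESeq2 1.42.0, RLE normalization, a replicate block, filterByExpr, a filter of only 1 count, omission of samples, and length and GC correction. The fits were tested on simulated data.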

Additional observations from a re-analysis of the deposited data

How the results depend on the processing

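CCND1, CDK4 and CDK2 passed in all 14 alternatives each, with log2 fold changes of 0.36 to 0.45, -0.70 to -0.60 and -0.61 to -0.48. CCND3, CCNE1, CCNE2 and CDKN1B passed in none. CDK6 passed in 7 of 14: its log2 fold change was -0.39 under RLE normalization (adjusted p = 0.0569), -0.39 with filterByExpr (0.0615) and -0.38 with the replicate block (0.148), and it ran from -0.48 to -0.20 when 1 sample was left out. Leaving out replicate 3 of both groups turned CCND3 to -0.011 and CDKN2A to -0.0024 and gave 4823 lower and 4555 higher genes, against 2957 and 2986 with all samples. CCNE2 ran from -0.49 to 0.081 when 1 sample was left out, the highest value being without the second WT sample. The difference in the CCNE1 to CDKN1B log2 ratio ran from -0.096 (without the third WT sample) to 0.17. Length and GC correction made CDKN2A pass (0.16, adjusted p = 0.0299), so 2 G1 genes were higher, a call lost again with the block added (adjusted p = 0.0901), and called 5 S and G2/M genes, 5 transcription factors and 7 Polycomb subunits. All-gene counts under that correction are not given, since 76.1% of tested genes had a length, though all 10 members did. The list counts under it therefore have no all-gene share beside them and are not read as a result about these lists. The replicate numbers were not taken as pairs: the labels do not say so, and deviations of same-numbered samples correlated at -0.59, -0.39 and -0.78 (10320 genes), with no sample closest to its own number. The replicate block gave 1719 lower and 1810 higher genes and called 1 of the ubiquitin ligase list, 4 of the RB and E2F list, 2 Polycomb subunits, 2 transcription CDKs or cyclins and 1 of the other cyclins and CDKs. Of the 42 called list genes 21 passed with it, and it ended no other call among the G1 genes. DESeq2 called 40 of the 42, without CDKN2C and CDK14. The cause of these changes was not tested. At this depth CCNE2, with 71 to 132 counts, was the least precisely measured member.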
